A study of Mus musculus with 18 samples.

Results

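The regulators of G protein signalling (RGS) described here are 9 genes, Rgs1, Rgs2, Rgs3, Rgs10, Rgs12, Rgs14, Rgs16, Rgs18, and Rgs19, taken by name from a count table of 29875 mouse genes. All 9 were among the 13844 genes that passed the filter on low counts and were tested. RNA was measured in bone marrow–derived dendritic cells (DCs), grown from marrow of wild-type C57Bl6/J mice that were between 8 and 12 weeks old. The cells were cultured with GM-CSF and matured from day 8 with lipopolysaccharide at 200 ng/ml for 24 hours. They were placed in migration chambers in bovine collagen of 4 densities, 1.7 and 2.6 mg/ml at the low end and 3.5 and 4.4 mg/ml at the high end, each with the chemokine CCL19, or in such chambers with no collagen (suspension). RNA was extracted once the CCL19 gradient had stood for 5 hours. There were 3 biological replicates of each of the 6 groups, 18 libraries in all. For suspension, the titles of the 2 groups contradict the library names about CCL19. Both groups are therefore referred to by title, and whether CCL19 raised or lowered a gene is not stated.

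Chemokine receptors such as CCR7, the receptor for CCL19, signal by loading the alpha subunit of a Gi protein with GTP, which frees the beta-gamma subunits to steer the cell. RGS proteins speed up the hydrolysis of that GTP, so they shorten the signal and make a cell less responsive to the chemokine. In leukocytes their levels are known to set how strongly cells follow lymphoid chemokines.

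Total counts ranged from 13062944 to 28059839 (median 17344953.5), and 3 counts corresponded to 0.107 to 0.23 CPM (counts relative to the library total), a floor that covers counting error only. Libraries of 1 replicate number share in their names a date, a run name, and a digit read here as the sequencing lane. A replicate is therefore also a batch that holds each group once. Replicates 1 and 3 share a run name, and replicate 2 has another. Replicates 1 and 2 had 29.3 to 228.8 CPM of Xist and at most 2 counts in a library over 4 Y-linked genes, whereas replicate 3 had no Xist counts and 54.7 to 183.1 CPM of the Y-linked genes, so that sex, date, and lane of a replicate cannot be told apart. The study's methods describe the marrow donors as male, which the Xist counts of replicates 1 and 2 go against. Markers of DCs summed to 18824.4 to 56131.4 CPM in suspension and 25361.3 to 60658.9 CPM in collagen, and Ccr7 alone had 40557 to 154839 counts in a library. T and NK cell markers summed to at most 3.59 CPM in any library. Levels below are CPM after TMM scaling, changes are log2 fold changes ± SE from edgeR's quasi-likelihood test over all 18 libraries, and a gene was called at an adjusted p (FDR) below 0.1 over all genes tested. Each comparison was also fitted with the replicate number as a block.

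In suspension, per kilobase of exon, Rgs10 and Rgs19 were the most abundant members. Exon length was the union over all annotated transcripts of a gene. For Rgs1 this union of 6947 bases covers the whole gene, so the order per kb depends on the annotation. Rgs10 had 47.4 ± 21.4 CPM per kb (SD, n = 6) and Rgs19 42.4 ± 11, and their ranges overlapped. Next came Rgs2 at 9.25 ± 1.98, Rgs1 at 7.97 ± 3.67, Rgs14 at 7.15 ± 3.12, and Rgs12 at 4.33 ± 2.19 CPM per kb. The highest of these, in any suspension library, was 12.0, below the lowest Rgs19 value of 30.3, whereas neighbours among these 4 genes overlapped in range. Rgs3 at 0.722 ± 0.142, Rgs18 at 0.615 ± 0.432, and Rgs16 at 0.185 ± 0.228 CPM per kb were the least abundant, and Rgs18 and Rgs16 reached no more than 49 and 74 counts in any library. At 4.4 mg/ml the means were 58.3 ± 35.1 CPM per kb for Rgs10, 28.2 ± 14.5 for Rgs2, 27.7 ± 17.9 for Rgs1, and 22 ± 4.61 for Rgs19 (SD, n = 3), and the ranges of neighbours in this order overlapped. Without division by length the order differed. In suspension the means were then 94.7 CPM for Rgs19, 81.2 for Rgs10, and 55.3 for Rgs1. Rgs1 reached 82 CPM there, above the lowest Rgs19 value of 67.6 CPM. At 4.4 mg/ml the means were 192.3 CPM for Rgs1, 102.2 for Rgs2, 99.7 for Rgs10, and 49.2 for Rgs19.

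Across the collagen and suspension groups the members moved in opposite directions. Rgs1 and Rgs2 rose in collagen, Rgs12, Rgs19, and Rgs3 fell, and Rgs10, Rgs14, Rgs16, and Rgs18 did not pass the test. Over all 4 densities, 5 of the 9 members were called, 2 higher and 3 lower, beside 20.2% of all genes tested (7.78% higher and 12.4% lower). The same 5 members were called with the replicate block, beside 34.8% of all genes (15.6% higher and 19.3% lower). The median log2 change was -0.002 over the 9 members and 0.003 over all genes tested.

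**Figure D1:**
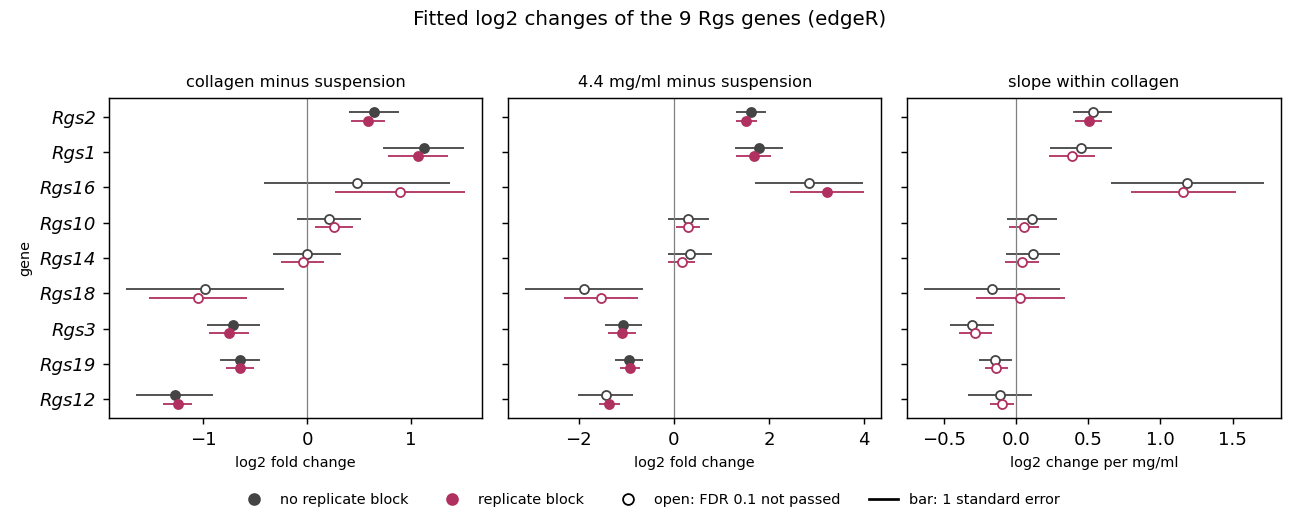
Fitted log2 fold changes (x axis, log2 fold change or log2 change per mg/ml) of the 9 Rgs genes (y axis) for collagen against suspension, 4.4 mg/ml against suspension, and the slope over density within collagen, with and without the replicate block. Bars are 1 SE, filled points passed an FDR of 0.1. Rgs1 and Rgs2 lie right of 0 and Rgs12, Rgs19, and Rgs3 left of 0 in both comparisons with suspension.

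Rgs2 is a small member of the family that acts preferentially on Gq and is known as a gene that is switched on early after stimulation. In suspension Rgs2 was at 38.9, 36.7, and 36.4 CPM in replicates 1, 2, and 3 of the group titled plus CCL19, and at 39.2, 28.8, and 21.1 CPM in the group titled without CCL19. In collagen it was at 46.1, 29.4, and 38.8 CPM at 1.7 mg/ml, 47.7, 24.4, and 37.6 CPM at 2.6 mg/ml, 75.3, 33.5, and 45.6 CPM at 3.5 mg/ml, and 162.9, 71.4, and 72.3 CPM at 4.4 mg/ml. The 4.4 mg/ml libraries lay above every suspension library and every library of 1.7 and 2.6 mg/ml, while the 3 lower densities overlapped suspension. The share of all genes tested that separated in this way was not counted. Within each of the 3 replicates the 4.4 mg/ml library was the highest of the 6, which held for 2.29% of all genes tested and for no other member.

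Against suspension, Rgs2 rose at 4.4 mg/ml by 1.62 ± 0.32 (adjusted p = 0.00558, edgeR; 3.07-fold), and it was higher in 3 of 3 replicates, with log2 differences of 2.06, 1.13, and 1.38. At this density 4 members were called, 2 higher and 2 lower, beside 14.8% of all genes tested (6.55% higher and 8.29% lower). Over all densities the rise of Rgs2 was 0.64 ± 0.24 (adjusted p = 0.0856, edgeR), and at 1.7, 2.6, and 3.5 mg/ml its log2 changes were 0.19 ± 0.33, 0.13 ± 0.33, and 0.63 ± 0.32, none called. The call over all densities was lost without replicate 1, 2, or 3 (adjusted p = 0.212, 0.19, and 0.298, edgeR) and without the filter (adjusted p = 0.136, edgeR). It was kept with the block (adjusted p = 0.0124), but not when replicate 1 was also left out (adjusted p = 0.157, both edgeR). Rgs2 was also the only member called for any difference among the 6 groups (adjusted p = 0.0564, edgeR), beside 4.9% of all genes tested, whereas 6 members were called with the replicate block, beside 24.3%.

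Within collagen the slope of Rgs2 over density was 0.53 ± 0.14 log2 units per mg/ml, with slopes of 0.68, 0.48, and 0.33 in the 3 replicates. It did not pass without the block (adjusted p = 0.356, edgeR), where 0 members were called, 2 had an unadjusted p under 0.05, and 0.00722% of all genes were called. With the replicate block the slope was 0.50 ± 0.09 (adjusted p = 0.0325, edgeR), the only member called beside 1.45% of all genes. This call was lost without replicate 1 (0.42, adjusted p = 0.24) and without replicate 2 (0.51, adjusted p = 0.392, both edgeR). DESeq2, the tool that the study's methods name, called Rgs2 without the block as well (0.54 ± 0.14, adjusted p = 0.042). From 1.7 to 4.4 mg/ml, Rgs2 differed by 1.42 ± 0.39 (adjusted p = 0.376, edgeR) and by 1.35 ± 0.26 with the block (adjusted p = 0.0305, edgeR).

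Rgs1 acts on Gi proteins and is best known in B and T lymphocytes, where it restrains migration toward lymphoid chemokines. In suspension Rgs1 was at 82.0, 29.8, and 52.9 CPM in replicates 1, 2, and 3 of the group titled plus CCL19, and at 76.7, 70.0, and 20.6 CPM in the group titled without CCL19. In collagen it was at 101.8, 48.5, and 71.8 CPM at 1.7 mg/ml, 99.3, 75.8, and 204.2 CPM at 2.6 mg/ml, 218.8, 57.6, and 73.6 CPM at 3.5 mg/ml, and 335.3, 109.9, and 131.7 CPM at 4.4 mg/ml. The 4.4 mg/ml libraries again lay above every suspension library, and the other densities overlapped suspension. As for Rgs2, the share of all genes that did so was not counted.

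Over all densities Rgs1 rose by 1.12 ± 0.39 (adjusted p = 0.0677, edgeR; 2.17-fold), with log2 differences of 1.06, 0.60, and 1.72 in the 3 replicates. This call was lost without replicate 2 or 3 (adjusted p = 0.175 and 0.267, edgeR). With the block it was kept whichever replicate was left out. At 4.4 mg/ml Rgs1 rose by 1.8 ± 0.51 (adjusted p = 0.0352, edgeR; 3.47-fold). At 2.6 mg/ml the change of 1.19 ± 0.51 did not pass (adjusted p = 0.195, edgeR), where 0 members were called, 3 had an unadjusted p under 0.05, and 7.87% of all genes were called. With the block it passed there at 1.29 ± 0.39 (adjusted p = 0.0322, edgeR), 1 of 3 members called beside 21.6% of all genes. The 2.6 mg/ml library of replicate 3 was the one that stood highest at that density, at 204.2 CPM. The log2 differences of Rgs1 at 2.6 mg/ml were 0.32, 0.73, and 2.62 in the 3 replicates. Its blocked call at this density was lost without replicate 3. The slope of Rgs1 within collagen, 0.45 ± 0.22 log2 units per mg/ml, did not pass (adjusted p = 0.702, edgeR, and 0.288 with the block).

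Rgs16, a further small member that acts on Gi and Gq and restrains chemokine-driven trafficking in lymphocytes, was at the edge of detection. It had 27, 3, and 1 counts in replicates 1, 2, and 3 of suspension titled plus CCL19 and 19, 5, and 0 in suspension titled without CCL19. In collagen it had 9, 2, and 0 counts at 1.7 mg/ml, then 7, 6, and 11 at 2.6 mg/ml, then 14, 3, and 0 at 3.5 mg/ml, then 62, 74, and 5 at 4.4 mg/ml. Only the 4.4 mg/ml libraries of replicates 1 and 2 stood out, at 2.80 and 6.32 CPM, and the third was at 0.25 CPM, inside the range of suspension.

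Against suspension, Rgs16 at 4.4 mg/ml had a log2 change of 2.84 ± 1.13 (adjusted p = 0.124, edgeR). It rose with the block, by 3.22 ± 0.79 (adjusted p = 0.00701, edgeR), when 6 of the 9 members were called, 3 higher and 3 lower, beside 31.9% of all genes (15.8% higher and 16.2% lower). Against 1.7 mg/ml the change was 3.56 ± 1.53 (adjusted p = 0.58, edgeR), and 3.89 ± 1.05 with the block (adjusted p = 0.0947, edgeR), 1 of 2 members called beside 1.73% of all genes. Without the 4.4 mg/ml library of replicate 2, the blocked changes were 1.76 (adjusted p = 0.16) and 2.43 (adjusted p = 0.34, both edgeR), so these calls rested on that library. Without replicate 1, Rgs16 did not pass the filter on low counts.

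**Figure D2:**
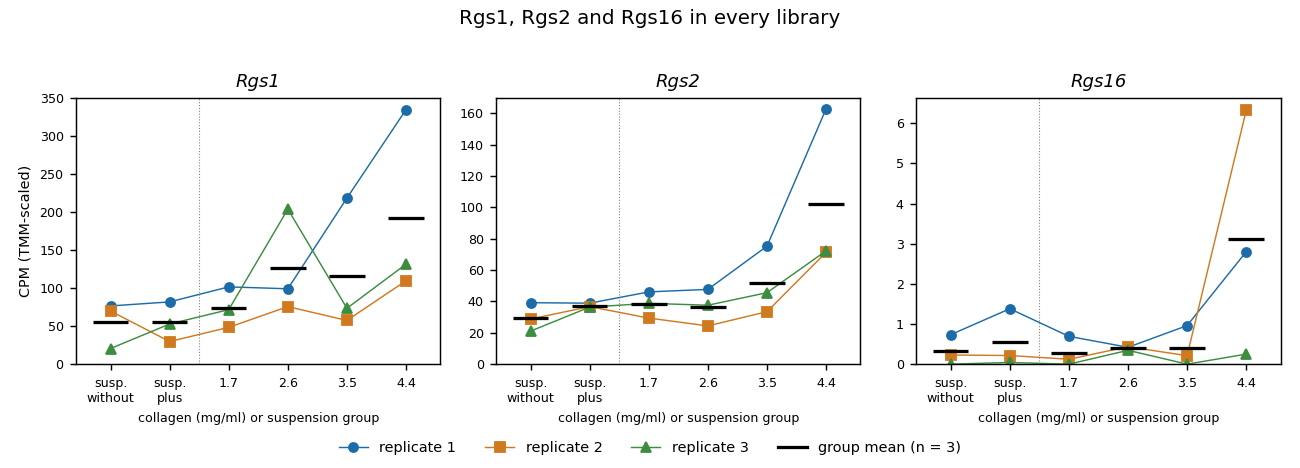
CPM (y axis, TMM-scaled, from 0) of Rgs1, Rgs2, and Rgs16 in each of the 18 libraries by suspension group and collagen density in mg/ml (x axis). Symbols and lines mark replicates 1 to 3, and black bars are group means (n = 3). The 4.4 mg/ml libraries are the highest for Rgs2 in all 3 replicates, and for Rgs1 and Rgs16 in 2 of 3.

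Rgs1, Rgs2, and Rgs18 lie within 776 kb on the minus strand of chromosome 1 in GRCm38, with 238 kb between Rgs2 (chr1:143999338-144004161) and Rgs1 (chr1:144242296-144249242) and 503 kb between Rgs1 and Rgs18 (chr1:144752683-144775435), whereas Rgs16 lies on the plus strand (chr1:153740349-153745468). RefSeq windows around start sites (GRCm38.p6, 250 bases before to 50 after) covered 6 of the 9 members, Rgs1, Rgs14, and Rgs18 not among them. The 250 bases before the start of Rgs2 (chr1:144004150-144004399, minus strand) and of Rgs16 (chr1:153740103-153740352, plus strand) are shown because both genes had their highest group mean at 4.4 mg/ml. Capitals mark TGACG or its reverse complement, CGTCA, the short form of the cAMP response element.
Rgs2: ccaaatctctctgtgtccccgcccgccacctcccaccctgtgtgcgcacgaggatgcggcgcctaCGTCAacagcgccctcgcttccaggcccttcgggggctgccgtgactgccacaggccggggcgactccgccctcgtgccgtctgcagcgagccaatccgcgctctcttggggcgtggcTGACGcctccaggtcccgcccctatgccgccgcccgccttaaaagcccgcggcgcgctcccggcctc
Rgs16: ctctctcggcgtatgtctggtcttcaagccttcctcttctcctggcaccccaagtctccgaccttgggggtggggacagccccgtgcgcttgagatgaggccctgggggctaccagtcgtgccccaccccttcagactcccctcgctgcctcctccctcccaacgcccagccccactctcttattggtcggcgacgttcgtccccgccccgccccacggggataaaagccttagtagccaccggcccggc

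The Rgs2 window held this short site at positions -185 and -67 relative to the start, and the Rgs16 window held none of the 5 motifs searched on both strands. The short site TGACG occurred in 20.8% of 32851 promoter windows, the whole site TGACGTCA (which contains it) in 1.79%, the AP-1 site TGANTCA in 7.81%, the E-box CACGTG in 7.15%, and TATAAA in 13.6%. Among the other members, 1 Rgs12 window held TGACG and the AP-1 letters TGACTCA, 1 Rgs19 window held CACGTG, and 2 Rgs3 windows held TATAAA. These matches are letters in a window and were not tested for use.

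Rgs12 is a large member of the family that also binds GDP-loaded Gi alpha subunits and Ras-type proteins. In suspension Rgs12 was at 16.0, 43.8, and 49.3 CPM in replicates 1, 2, and 3 of the group titled plus CCL19, and at 14.1, 36.2, and 60.7 CPM in the group titled without CCL19. In collagen it was at 7.16, 21.6, and 24.4 CPM at 1.7 mg/ml, 6.90, 16.6, and 18.4 CPM at 2.6 mg/ml, 5.49, 20.6, and 20.6 CPM at 3.5 mg/ml, and 6.99, 14.4, and 19.2 CPM at 4.4 mg/ml. Replicate 1 was lowest in every group, so the pooled ranges overlapped, but within each of the 3 replicates all 4 collagen libraries lay below both suspension libraries. That separation held for Rgs12 and Rgs19 among the members and for 4.19% of all genes tested. No member was higher in collagen in this way in all 3 replicates, beside 2.43% of all genes, and Rgs1 and Rgs2 were in 2 of 3.

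Over all densities Rgs12 fell by 1.28 on the log2 scale (SE 0.37, adjusted p = 0.0329, edgeR; 2.43-fold), the most of any member called. The log2 differences of the 3 replicates were -1.18, -1.13, and -1.41. The call of Rgs12 over all densities was lost without replicate 2 or 3 (adjusted p = 0.24 and 0.192, edgeR). With the block it was kept whichever replicate was left out. Against suspension its changes, from the lowest density to the highest, were -1.05 ± 0.57, -1.39 ± 0.59, -1.24 ± 0.58, and -1.44 ± 0.59, none of them called (adjusted p = 0.693, 0.189, 0.279, and 0.135, edgeR). With the replicate block Rgs12 was called at each density, with -1.04 ± 0.21, -1.33 ± 0.22, -1.26 ± 0.22, and -1.36 ± 0.22 (adjusted p = 0.0331, 0.00134, 0.00255, and 0.000336, edgeR). At 1.7 mg/ml it was the only member called, beside 2.91% of all genes with the block and 0.0361% without it, when 0 members were called and 0 had an unadjusted p under 0.05. The blocked call of Rgs12 at 1.7 mg/ml was lost without any 1 of the 3 replicates, and that at 3.5 mg/ml without replicate 1. Its slope within collagen was -0.11 ± 0.22 log2 units per mg/ml (adjusted p = 0.99, edgeR; 95% interval -0.55 to 0.32).

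Rgs19, a short member that acts on Gi and is anchored to membranes by a cysteine-rich stretch, showed a like pattern at a higher level. In suspension Rgs19 was at 70.3, 125.4, and 101.5 CPM in replicates 1, 2, and 3 of the group titled plus CCL19, and at 67.6, 84.4, and 118.7 CPM in the group titled without CCL19. In collagen it was at 49.7, 79.4, and 92.6 CPM at 1.7 mg/ml, 46.3, 51.4, and 57.1 CPM at 2.6 mg/ml, 46.1, 72.3, and 93.8 CPM at 3.5 mg/ml, and 44.2, 42.3, and 61.0 CPM at 4.4 mg/ml. All 2.6 and 4.4 mg/ml libraries lay below every suspension library, a separation whose share over all genes was not counted, and those of 1.7 and 3.5 mg/ml overlapped suspension.

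Rgs19 fell over all densities by 0.65 on the log2 scale (SE 0.20, adjusted p = 0.0382, edgeR; 1.57-fold), with differences of -0.57, -0.79, and -0.57 in the 3 replicates. This call was lost without replicate 2 or 3 (adjusted p = 0.352 and 0.102, edgeR). With the block it was kept whichever replicate was left out. At 4.4 mg/ml Rgs19 fell by 0.94 (SE 0.29, adjusted p = 0.0558, edgeR; 1.92-fold). At 2.6 mg/ml the change was -0.87 ± 0.29 (adjusted p = 0.105, edgeR) and with the block -0.84 ± 0.20 (adjusted p = 0.0117, edgeR). The slope of -0.15 ± 0.12 log2 units per mg/ml within collagen was not called (adjusted p = 0.926, edgeR).

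Rgs3, which acts on Gi and Gq and in its longer forms also binds beta-gamma subunits, was low, with 47 to 196 counts in a library. In suspension Rgs3 was at 5.57, 9.73, and 8.13 CPM in replicates 1, 2, and 3 of the group titled plus CCL19, and at 6.72, 7.56, and 9.10 CPM in the group titled without CCL19. In collagen it was at 4.01, 8.49, and 5.62 CPM at 1.7 mg/ml, 3.72, 10.6, and 3.92 CPM at 2.6 mg/ml, 3.50, 4.28, and 3.50 CPM at 3.5 mg/ml, and 2.62, 4.61, and 4 CPM at 4.4 mg/ml. The libraries of 3.5 and 4.4 mg/ml lay below every suspension library, a separation whose share over all genes was not counted. The 2.6 mg/ml library of replicate 2 was the highest of all 18.

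Rgs3 fell over all densities by 0.71 on the log2 scale (SE 0.26, adjusted p = 0.0761, edgeR; 1.64-fold), with differences of -0.82, -0.40, and -1.02 in the 3 replicates. This call was lost without replicate 1, 2, or 3 (adjusted p = 0.231, 0.125, and 0.379, edgeR). With the block Rgs3 was called (adjusted p = 0.00844), but not without replicate 1 (adjusted p = 0.117) or replicate 3 (adjusted p = 0.107, all edgeR). At 4.4 mg/ml it fell by 1.06 (SE 0.39, adjusted p = 0.0985, edgeR), a call that was kept with the block (-1.09, adjusted p = 0.0136, edgeR) but lost with DESeq2 size factors, no filter, or GC and length offsets (adjusted p = 0.119, 0.188, and 0.195, edgeR). At 3.5 mg/ml the change of -1.05 ± 0.39 did not pass (adjusted p = 0.171, edgeR), where 0 members were called, 3 had an unadjusted p under 0.05, and 4.9% of all genes were called. With the block it passed there at -1.04 ± 0.30 (adjusted p = 0.032, edgeR), 1 of 2 members called beside 18.4% of all genes. This blocked call was lost without any 1 of the 3 replicates, and when GC and length offsets were added.

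**Figure D3:**
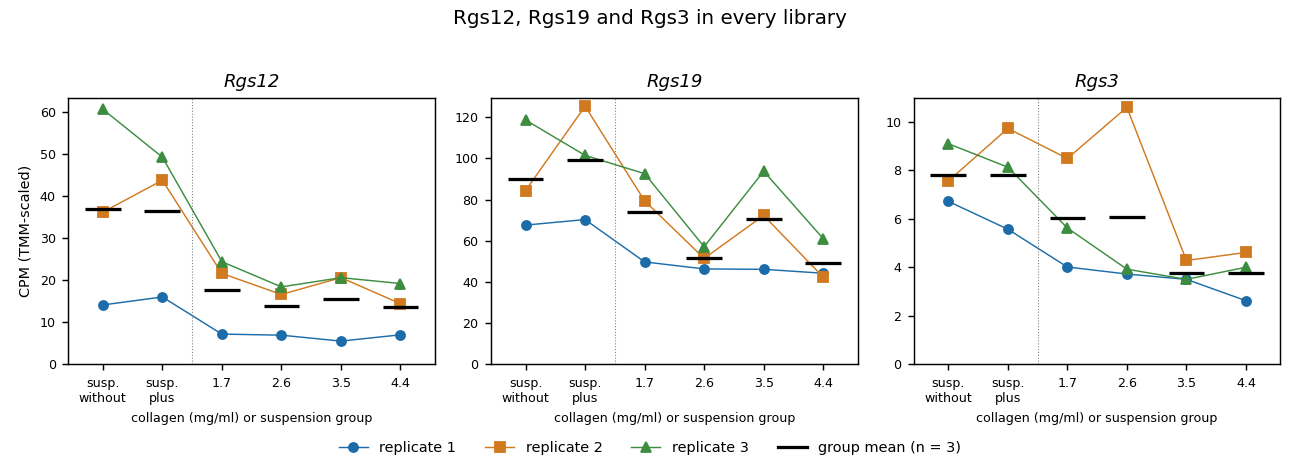
CPM (y axis, TMM-scaled, from 0) of Rgs12, Rgs19, and Rgs3 in each of the 18 libraries by suspension group and collagen density in mg/ml (x axis). Symbols and lines mark replicates 1 to 3, and black bars are group means (n = 3). For Rgs12 and Rgs19 the 4 collagen libraries of each replicate lie below both suspension libraries of that replicate.

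The ratio of 2 members inside a library is a measure that library scaling does not touch. Rgs1 and Rgs12 had the largest rise and the largest fall over all densities among the members called, so a shift of their ratio repeats those changes. The GC content of the 2 genes also differs, and its part in the ratio was not tested. The ratio of Rgs1 to Rgs12 counts in suspension was 5.11, 0.679, and 1.07 in replicates 1, 2, and 3 of the group titled plus CCL19, and 5.44, 1.93, and 0.34 in the group titled without CCL19. At 4.4 mg/ml it was 47.9, 7.62, and 6.85. Within every replicate the 4.4 mg/ml ratio lay above both suspension ratios, and the ratios of 1.7 mg/ml, 14.2, 2.24, and 2.94, did so too. At 1.7 mg/ml neither gene was called without the block (Rgs1 0.42, adjusted p = 0.915, and Rgs12 -1.05, adjusted p = 0.693, edgeR), and with it only Rgs12 was. How often the ratios of other gene pairs separate in this way was not counted.

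Several measures moved with these changes. Markers of eosinophils summed to 117.8 to 1359 CPM (median 346.6) in suspension and 14.1 to 169.3 CPM (median 43.5) in collagen, and 8 of the 8 tested fell in collagen, beside 12.4% of all genes. The eosinophil marker Il5ra had no counts at 4.4 mg/ml. In bulk samples fewer cells of a type and less RNA per cell cannot be told apart. The log2 ratio of the mean eosinophil sum, collagen over suspension, was -1.61, -2.79, and -4.58 in replicates 1, 2, and 3, beside -1.18, -1.13, and -1.41 for Rgs12 and -0.57, -0.79, and -0.57 for Rgs19. Markers of neutrophils fell for 3 of 10, and their sum was 0.86 higher on the log2 scale in collagen in replicate 1 but 0.65 and 0.53 lower in replicates 2 and 3, where Rgs12, Rgs19, and Rgs3 were lower in collagen in all 3 replicates. The longest annotated transcripts of Rgs1 and Rgs2 have a GC content of 35.9% and 43.6%, and those of Rgs12, Rgs3, and Rgs19 one of 54.5%, 54.3%, and 52.5%. Those of the members not called, Rgs18, Rgs10, Rgs14, and Rgs16, have 33.4%, 50.7%, 52%, and 53.5%. The log2 changes of these genes in collagen against suspension were -0.98, 0.21, -0.002, and 0.48, in the same order. Markers of macrophages summed to 418 to 2381.5 CPM in suspension and 396.7 to 2661.1 CPM in collagen, and the log2 ratio of their mean sum, collagen over suspension, was 0.29, 0.53, and 0.56 in replicates 1, 2, and 3. With the block 6 of 9 tested rose, beside 15.6% of all genes, and without it 0 were called by edgeR, and Cd163 had no counts at 4.4 mg/ml. With offsets for GC content and length, Rgs1 and Rgs19 were called for collagen against suspension, whereas Rgs2 had 0.55 (adjusted p = 0.168), Rgs12 -1.02 (adjusted p = 0.125), and Rgs3 -0.48 (adjusted p = 0.221, all edgeR). With these offsets and the replicate block all 5 passed, Rgs12 at -0.96 (adjusted p = 7.45e-05, edgeR). The part of the eosinophil, neutrophil, and macrophage markers in the Rgs results was not tested.

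Of the members not called over all densities, Rgs10, a small protein that acts on Gi and is abundant in myeloid cells, had the highest level. It was at 41.2 to 126.0 CPM (median 84.1, n = 6) in suspension and 59.2 to 183.5 CPM (median 73.2, n = 12) in collagen, a log2 change of 0.21 ± 0.31 (adjusted p = 0.707, edgeR; 95% interval -0.39 to 0.81). By replicate, Rgs10 had means of 57.8, 82.0, and 130.3 CPM in replicates 1, 2, and 3. Its exons overlap those of Gm15503 on the same strand, which had at most 12 counts.

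Rgs14, a relative of Rgs12 with the same kind of binding sites for Gi alpha and Ras-type proteins, had 18.1 to 50.9 CPM (median 27.5) in suspension and 9.34 to 52.1 CPM (median 29.8) in collagen. The log2 change was -0.002 ± 0.33 (adjusted p = 0.998, edgeR), with a 95% interval from -0.65 to 0.64. At 4.4 mg/ml Rgs14 was at 52.1, 51.2, and 9.34 CPM in replicates 1, 2, and 3, the highest library of its replicate in the first 2 and the lowest in the third. Its replicates thus differed in sign against suspension at 4.4 mg/ml, by 0.51, 0.67, and -0.999.

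Rgs18, which is abundant in platelets and megakaryocytes, had 2, 26, and 26 counts in replicates 1, 2, and 3 of suspension titled plus CCL19 and 9, 47, and 34 in the group titled without CCL19. In collagen it had 0, 11, and 17 counts at 1.7 mg/ml, then 0, 8, and 49 at 2.6 mg/ml, then 1, 30, and 16 at 3.5 mg/ml, then 4, 2, and 12 at 4.4 mg/ml. The groups overlapped, and the log2 change of -0.98 ± 0.76 did not pass (adjusted p = 0.438, edgeR; -1.05 and adjusted p = 0.108 with the block). It did pass with DESeq2 and the block, at -1.05 (adjusted p = 0.0697, DESeq2), and with the block and GC and length offsets, at -1.62 (adjusted p = 0.00504, edgeR). Markers of megakaryocytes and platelets summed to 15.9 to 185.2 CPM in suspension and 24.9 to 254.8 CPM in collagen with their highest median, 198.8 CPM, in replicate 1, where the mean of Rgs18 was lowest. Rgs18 had at most 9 counts in a library of that replicate, and the part of these cells in its counts was not tested.

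**Figure D4:**
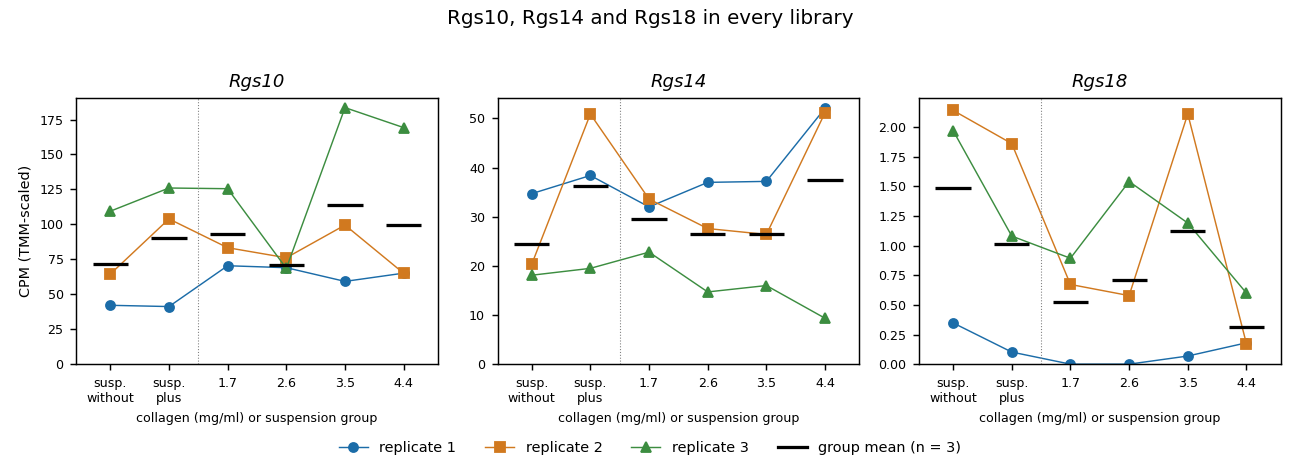
CPM (y axis, TMM-scaled, from 0) of Rgs10, Rgs14, and Rgs18 in each of the 18 libraries by suspension group and collagen density in mg/ml (x axis). Symbols and lines mark replicates 1 to 3, and black bars are group means (n = 3). Replicates differ in mean level but their ranges overlap in part, with Rgs10 highest in replicate 3 at 3.5 and 4.4 mg/ml. Collagen overlaps suspension for all 3 genes.

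Between the 2 suspension groups no member was called (0% of all genes), and 0 had an unadjusted p under 0.05 with edgeR. DESeq2 also called 0 members. The log2 changes, titled plus minus titled without CCL19, ranged from -0.56 ± 1.26 for Rgs18 to 0.71 ± 1.41 for Rgs16, and that of Rgs1 was -0.02 ± 0.61.

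The replicate number itself, tested with the block after the data had been seen, was called for all 9 members, beside 48.3% of all genes tested. Rgs12 had means of 9.45, 25.6, and 32.1 CPM in replicates 1, 2, and 3 (adjusted p = 3.83e-06, edgeR). Rgs14 went the other way, at 38.6, 35, and 16.7 CPM (adjusted p = 0.00205, edgeR). Rgs18 was at 0.116, 1.25, and 1.21 CPM, and Rgs16 at 1.16, 1.25, and 0.106 CPM. Without replicate 1, 1 member was called, Rgs14, beside 1348 of 13730 genes tested, and Rgs16 did not pass the filter on low counts. Without replicate 2, 8 were called, Rgs3 not among them, beside 6669 of 14106 genes tested. Without replicate 3, 7 were called, Rgs14 and Rgs16 not among them, beside 4126 of 13662 genes tested.

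After each replicate's mean was subtracted, Rgs12 and Rgs19 had a Pearson r of log2 CPM of 0.86 over the 18 libraries and Rgs1 and Rgs2 one of 0.72, while Rgs1 had -0.82 with Rgs19 and -0.78 with Rgs12. These are descriptions over libraries that share groups and batches. The tested genes most like Rgs1 by this measure were Klf3 (0.962), Snhg1 (0.953), and Nfkbiz (0.942), and those most like Rgs2 were Ifrd1 (0.87), Cdo1 (0.861), and Nr4a2 (0.861). For Rgs12 they were Nckipsd (0.973), Vps39 (0.962), and Mfn2 (0.961), and for Rgs19 Nudt7 (0.943), Mrpl41 (0.942), and Bdh1 (0.924). For Rgs16 they were Zfand2a (0.941), Midn (0.932), and Nr4a1 (0.924), and for Rgs18 Nanos1 (0.9), Ccr2 (0.898), and Ufl1 (0.888).

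Around the RGS step, 3 receptor kinases and arrestins and 3 chemokine receptors fell in collagen, where 12.4% of all genes fell and 7.78% rose (19.3% and 15.6% with the block). Of 11 tested chemokine receptors, 0 rose and 3 fell in collagen, namely Ccr3, an eosinophil marker, with -3.51 ± 0.49, Cxcr2, a receptor of neutrophils, with -1.69 ± 0.57, and Ccr2, a receptor of monocytes, with -1.07 ± 0.36 (adjusted p = 0.000583, 0.0596, and 0.0584, edgeR). With the block 2 rose, Ccrl2 with 1.28 and Cxcr4 with 0.62 (adjusted p = 0.00678 and 0.062, edgeR), and 4 fell, the fourth being Cx3cr1 with -1.29 (adjusted p = 0.0437, edgeR), and these 3 genes were named after their values had been seen. Ccr7 stood at 3980.1 ± 1618.3 CPM in suspension (SD, n = 6) and 4063.4 ± 529.4 CPM in collagen (SD, n = 12), a change of 0.04 ± 0.22 (adjusted p = 0.932, edgeR). Of 9 tested alpha subunits, 0 were called by edgeR without the block, where 1 had an unadjusted p under 0.05 (Gnai3), and with it 2 rose, Gnai3 and Gna13. Of 12 beta and gamma subunits, 1 rose, Gng12, and with the block 4 rose, Gng12, Gnb1, Gngt2, and Gng11, and 1 fell, Gnb4, with -0.50 (adjusted p = 0.0123, edgeR), named after its value had been seen. Receptor kinases and arrestins, which end receptor signalling upstream of the RGS step, fell for 3 of 7, with Arrb1 at -1.08 ± 0.20, Grk6 at -0.99 ± 0.21, and Grk2 at -0.42 ± 0.15 (adjusted p = 0.00308, 0.00619, and 0.0782, edgeR).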

How the data were processed

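Reads of 50 bases from stranded mRNA libraries were, per the labels and the methods of the authors, aligned to GRCm38 with STAR 2.7.0f, and whole-number counts per Ensembl gene were deposited without normalization. The counting tool and its strand setting are not given in the sources used here. The authors calculated TPM values with RSEM, which were not used here, and whether RSEM also gave the counts is not stated. Symbols, exon lengths, and GC content were matched for 29850 of 29875 genes. Exon length was the union over the annotated transcripts of a gene, and GC content was that of its longest annotated transcript.

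From the counts, R 4.3.3 with edgeR 4.0.16 (filterByExpr, TMM, quasi-likelihood F-test, Benjamini-Hochberg adjustment, FDR 0.1) was fitted once over all 18 libraries, for 9 comparisons. SEs were derived from the F statistic. DESeq2 1.42.0, the replicate block, GC and length offsets (loess, span 0.5), no filter, FDR 0.05, and omitted replicates were alternatives. Replicate numbers pair the libraries because date, run name, and lane digit in the library names are shared. Deviations from group means correlated with a median r of 0.475 over 45 pairs of libraries with 1 number and -0.289 over 90 pairs with other numbers. Deviations within a group sum to 0, so the second value follows in part from the first and is no separate support for pairing. Genes varied between replicates with a common coefficient of 49.0%, or 33.1% once the block was fitted. None of the 153 pairs of libraries was identical (0 pairs). The fit was tested on simulated data. Log2 CPM used a prior count of 2.

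The members, gene lists, and markers were chosen with earlier results of these data known. The genes named are all 9 members, up to 4 called genes of each pathway list ordered by p, the 3 genes most like a member, and Ccr7. The test of the replicate number, the separation within replicates, and the block without the 4.4 mg/ml library of replicate 2 were added after seeing the data.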

Additional observations from a re-analysis of the deposited data

How the results depend on the processing

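The number of members called depended most on the replicate and its block. With the replicate block it was 6 rather than 1 for any difference, 1 rather than 0 for the density trend, 2 rather than 0 for 4.4 against 1.7 mg/ml, and 1, 3, and 2 rather than 0 for 1.7, 2.6, and 3.5 mg/ml against suspension. The block left 5 for collagen against suspension and gave 6 rather than 4 for 4.4 mg/ml against suspension. DESeq2 gave 2, 1, and 1 for any difference, trend, and 4.4 against 1.7 mg/ml, and 2 and 1 for 2.6 and 3.5 mg/ml. Of the 13844 genes tested it called 2015, 122, 147, 1828, and 1343 in these comparisons. DESeq2 with the block gave 6, 2, and 3, 6 for collagen against suspension (Rgs18 added), and then 1, 3, 4, and 7 for the 4 densities against suspension. Over all genes it called 5298, 811, 918, and 5381, and then 1095, 3665, 3200, and 5023. GC and length offsets left 2 for collagen against suspension, and with the block they gave 6 for any difference, 6 for collagen against suspension (Rgs18 added), 2 for the trend, 3 for 4.4 against 1.7 mg/ml, and 1, 4, 2, and 7 for the densities. Over all genes the offsets alone called 2805 for collagen against suspension. With the block they called 3697, 5123, 702, and 928 genes, and 620, 3374, 2564, and 4818 at the densities. Without the filter the counts were 4 for any difference, 3 for collagen against suspension, 1 for the trend, 1 for 4.4 against 1.7 mg/ml, and 2 and 2 for 2.6 and 3.5 mg/ml. Of the 29875 genes then tested, 1993, 2715, 139, 151, 1228, and 706 were called. At an FDR of 0.05 the member counts were 0 for any difference and 2 for collagen and for 4.4 mg/ml against suspension. Over all genes 338, 1793, and 1229 passed at that FDR.

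Leaving out each replicate in turn gave 0 members for any difference in all 3 cases, 0 to 3 for collagen against suspension (0 without replicate 2 and 0 without replicate 3), 0 to 3 for 2.6 mg/ml, and 0 to 4 for 4.4 mg/ml. With the block the ranges of members called were 2 to 4 for any difference, 3 to 5 for collagen against suspension, 0 to 1 for the trend and for 4.4 against 1.7 mg/ml, 0 in all 3 cases for 1.7 mg/ml, 1 to 3 for 2.6 mg/ml, 0 to 3 for 3.5 mg/ml, and 1 to 8 for the replicate number. The genes called in these blocked fits were 1518, 987, and 1474 for any difference. They were 2690, 3739, and 3487 for collagen against suspension and 0, 0, and 181 for the trend. For 4.4 against 1.7 mg/ml they were 15, 0, and 173. Against suspension they were 16, 34, and 95 at 1.7 mg/ml and 2672, 1821, and 665 at 2.6 mg/ml. At 3.5 mg/ml they were 198, 1439, and 1057. Fewer libraries entered these fits. Without the 4.4 mg/ml library of replicate 2, 2 members were called at 4.4 mg/ml without the block, and with it 5 for any difference, 1 for the trend, 1 for 4.4 against 1.7 mg/ml, 1 for 1.7 mg/ml, 3 for 2.6 mg/ml, and 3 for 3.5 mg/ml. Of the 14368 genes then tested, 1457 were called at 4.4 mg/ml without the block. With the block 3546, 45, 43, 760, 3663, and 3165 were called, in the same order.

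Among single members, 330 changes kept direction and side of the threshold over the alternatives, 82 passed it newly, 39 no longer passed, and 7 turned sign. All 7 were Rgs14 for collagen against suspension, at -0.002, which had 0.046 with DESeq2 and with its size factors, 0.16 with GC and length offsets, 0.13 with these and the block, -0.075 to 0.055 over the omitted replicates and library, and up to 0.054 with the block and an omitted replicate. Apart from these shown cases the cause of a move was not tested. Rgs16 gave no value without replicate 1 or between 1.7 and 4.4 mg/ml alone, since it did not pass the filter. A fit on the compared groups alone was not run for collagen against suspension, which uses every library. Depth limits Rgs16 and Rgs18 most.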

Other observations

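Some genes that are known to be induced early by cAMP and calcium signals, the group to which Rgs2 is usually counted, rose in collagen. Of 13 tested, 2 rose in collagen and 6 at 4.4 mg/ml against suspension, and 0 fell, beside 7.78% and 6.55% of all genes tested that rose in these comparisons. With the replicate block 7 and 11 rose, beside 15.6% and 15.8% of all genes. Crem, a transcription factor of the cAMP pathway, was at 69.3 ± 15.9 CPM in suspension (SD, n = 6) and 156.7 ± 57.6 CPM in collagen (SD, n = 12), a rise of 1.15 ± 0.23 (adjusted p = 0.00467, edgeR), where Rgs2 rose by 0.64 ± 0.24. Nr4a2, an orphan nuclear receptor, rose by 1.60 ± 0.43 in collagen (adjusted p = 0.022, edgeR) and by 3.35 at 4.4 mg/ml (adjusted p = 0.00223, edgeR), where Rgs2 rose by 1.62. The list was chosen with results of these data known, and Nr4a2 was among the genes most like Rgs2.

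Some effectors downstream of chemokine receptors fell in collagen, as Rgs12 and Rgs19 did. Of 17 tested, 0 rose and 6 fell in collagen, beside 12.4% of all genes. Prex1, which activates Rac in response to beta-gamma subunits, was at 975.4 ± 209.0 CPM in suspension and 585.7 ± 142.0 CPM in collagen, a change of -0.75 ± 0.16 (adjusted p = 0.00666, edgeR). Pik3cg, the kinase that beta-gamma subunits activate, changed by -0.87 ± 0.24 (adjusted p = 0.0259, edgeR), Arhgef1, which itself carries an RGS-like domain for alpha subunits of the other class, by -0.63 ± 0.17 (adjusted p = 0.0189, edgeR), and the adenylyl cyclase Adcy9 by -1.56 ± 0.38 (adjusted p = 0.0132, edgeR). Of 8 tested other regulators of alpha subunits, 1 rose, Axin1, whose RGS-like domain serves Wnt signalling, by 0.68 ± 0.22 (adjusted p = 0.0563, edgeR).

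Of 15 further genes with Rgs symbols looked up, some of which, such as Rgs7bp, encode binding partners of RGS proteins, 9 were in the table and 4 passed the filter on low counts, Rgs6, Rgs9, Rgs11, and Rgs7bp, and 0 of them were called by edgeR in collagen against suspension, with or without the block, with 0 at an unadjusted p under 0.05 and adjusted p from 0.306 to 0.634 without it. Rgs11 ranged from 0 to 174 counts in a library. Among the remaining markers, 1 of 12 DC, 0 of 9 macrophage, 1 of 8 basophil and mast cell, 1 of 4 megakaryocyte and platelet, 0 of 5 B cell, and 0 of 1 T and NK cell genes tested were called in collagen against suspension. The megakaryocyte and platelet gene rose and the others fell. With the block, 6 macrophage markers rose, beside 15.6% of all genes, and 4 basophil and mast cell markers fell, beside 19.3%.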
